A study of Mus musculus with 4 samples.

Results

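The genes encoding the transcription factors TCF-1 (Tcf7) and LEF-1 (Lef1), their relatives Tcf7l1 and Tcf7l2, the coactivator β-catenin (Ctnnb1) and the corepressors Tle1, Tle3 and Tle4 were examined for accessible chromatin in cultured mouse natural killer (NK) cells. Every accessible region whose nearest protein-coding gene was one of these 8 genes was taken, by distance to the gene's span (equal distances were settled by the closer gene end). In all, 185 of 91266 regions were assigned to them. Of the 185, 6 were in the authors' list of up regions and 3 in their list of down regions. The cells were splenic NK cells of wild-type (WT) C57BL/6 mice, kept for 72 h in a low (LD) or a high (HD) dose of interleukin-15 (IL-15), the cytokine on which NK cells depend. The concentrations are not given in the sources used here, and each dose had 2 biological replicates. Accessibility was measured by ATAC-seq, in which a transposase cuts open chromatin and inserts sequencing adapters. The deposited lists hold positions only and do not say in which dose an up region was more accessible, so neither list is tied to a dose below.

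TCF and LEF proteins bind DNA through a shared HMG box and recognise the same short sequence. Without β-catenin they can recruit TLE proteins, also called Groucho proteins, and keep target genes repressed. When a Wnt signal stabilises β-catenin, it enters the nucleus, binds TCF or LEF factors and turns their targets on. TCF-1 is needed for early innate lymphoid and NK cell development and marks immature and memory-like lymphocytes. Both Tcf7 and Lef1 are known to give short protein forms that lack the β-catenin binding part, made from internal promoters.

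No value per sample, fold change or p-value was available, so sequencing depth and the spread between replicates are unknown and the calls are the authors' own. Shares are given with 95% Wilson intervals, which cover counting error only. In a bulk sample, a larger share of cells open at a site and more open chromatin per cell cannot be told apart. As a check of the cell type label, region positions at marker genes were counted. Of all annotated starts of protein-coding genes, 59.5% lay within 1000 bp of a region. The starts of 8 of 8 NK cell marker genes (among them Ncr1, Eomes and Tbx21) did so. The same held for 4 of 7 T cell markers found in the gene tables (Cd3e, Cd4, Cd5 and Cd28), 0 of 6 B cell markers and 3 of 6 myeloid markers (Itgam, Cd14 and Spi1). The T cell and myeloid counts were about the share of all starts, so they do not tell whether such cells were present. The part of other cells in the lists was not tested.

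The starts of the 8 genes are described first, because every one of them carried a region at or near an annotated start and none of those regions was listed. RefSeq gives 15 starts for these genes. A region covered 11 of the 15 (73.3%), against 11125 of 21262 starts of protein-coding genes in the same table (52.3%). All 15 had a region within 1000 bp, which was the case for 59.5% of starts overall. The 11 covered starts lay in 9 regions, and 0 of the 9 were in either list. Listing was rare at starts in general: of 9211 regions that covered a start, 0.684% were up and 0.239% were down.

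**Figure D1:**
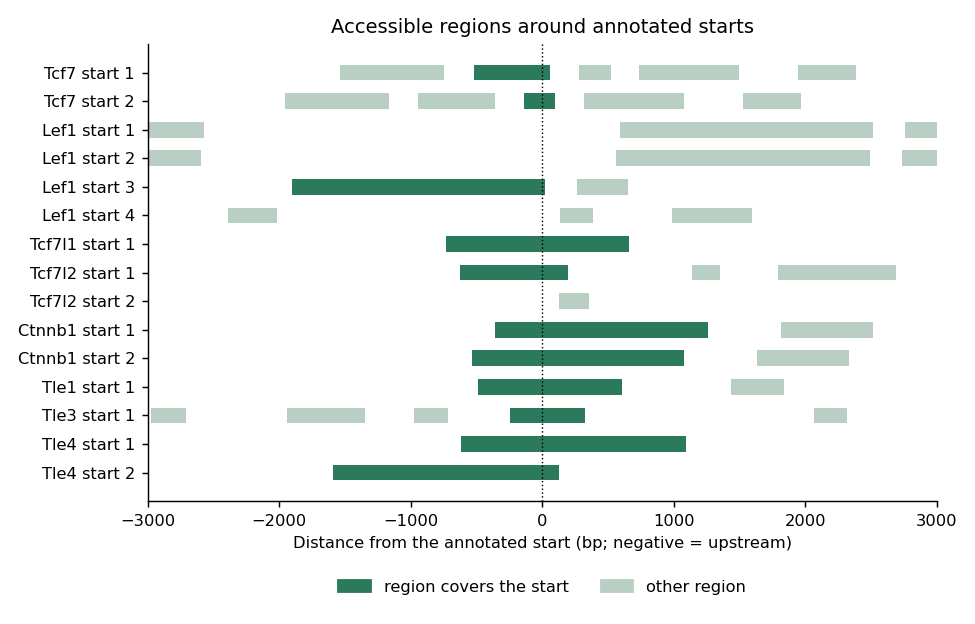
Accessible regions within 3000 bp of each of the 15 annotated starts, drawn in the direction of transcription with distance from the start in bp. Dark bars are regions that cover the start and pale bars are other regions. The 4 starts without a dark bar are Lef1 starts 1, 2 and 4 and Tcf7l2 start 2.

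The 4 uncovered starts belonged to Lef1 and Tcf7l2. At Lef1, starts 1 and 2 lay 589 bp and 563 bp before a region of 1931 bp (chr3:131110886-131112816). That region covered start 3 and ended 25 bp after it. Start 4 of Lef1, well inside the gene, lay 134 bp before a region of 253 bp, and start 2 of Tcf7l2 lay 130 bp before one of 227 bp. The covered and uncovered starts thus differed within a gene, and no start was more than 589 bp from a region.

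The 250 bases before 3 of the uncovered starts, and before the covered start of Tle3, are printed to show the sequence at these sites. They run 5′ to 3′ on the gene's strand and come from RefSeq on GRCm38.p6. Capitals mark the core of the TCF and LEF motif, CTTTGA, on either strand.
Lef1 start 1, chr3:131110047-131110296, plus strand: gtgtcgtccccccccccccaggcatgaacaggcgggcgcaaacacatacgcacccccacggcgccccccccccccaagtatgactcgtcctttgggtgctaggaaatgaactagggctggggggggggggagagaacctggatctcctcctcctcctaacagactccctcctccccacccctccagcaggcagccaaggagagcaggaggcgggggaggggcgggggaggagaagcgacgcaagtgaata
Lef1 start 4, chr3:131156044-131156293, plus strand: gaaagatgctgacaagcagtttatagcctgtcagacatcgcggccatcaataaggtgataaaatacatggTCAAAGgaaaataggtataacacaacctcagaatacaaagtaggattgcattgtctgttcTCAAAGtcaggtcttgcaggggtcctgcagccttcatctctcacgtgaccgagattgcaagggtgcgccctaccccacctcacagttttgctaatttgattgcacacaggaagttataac
Tcf7l2 start 2, chr19:55895071-55895320, plus strand: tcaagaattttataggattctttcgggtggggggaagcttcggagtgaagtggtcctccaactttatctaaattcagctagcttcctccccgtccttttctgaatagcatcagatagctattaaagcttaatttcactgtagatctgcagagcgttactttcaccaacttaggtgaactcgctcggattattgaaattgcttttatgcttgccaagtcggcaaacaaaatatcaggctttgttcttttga
Tle3 start 1, chr9:61372116-61372365, plus strand: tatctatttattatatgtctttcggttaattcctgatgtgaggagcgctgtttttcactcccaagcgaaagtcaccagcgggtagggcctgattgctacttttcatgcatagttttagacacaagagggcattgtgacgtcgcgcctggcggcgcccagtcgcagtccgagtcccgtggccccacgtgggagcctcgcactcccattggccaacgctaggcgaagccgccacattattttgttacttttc

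Before start 1 of Lef1, 66.4% of the bases were G or C and the longest run of a single base was 12. Before start 4 of Lef1 the G and C share was 44.8%, before start 2 of Tcf7l2 it was 40.8%, and before the start of Tle3 it was 52.4%. Start 4 of Lef1 held 2 matches to the TCF and LEF core, beginning 180 and 120 bases before the start, both as TCAAAG. It was the only 1 of the 15 windows of 300 bases (250 before and 50 from each start on) with a match, or 6.67%, against 14.4% of 21262 windows. Among the other motifs searched on both strands, the ETS core AGGAAG was in 2 of 15 windows (34.4% of all windows) and the GATA core AGATAA in 2 of 15 (9.65%). STAT (TTCNNNGAA), T-box (GGTGTGA), RUNX (TGTGGT) and AP-1 (TGANTCA) motifs, and an IRF motif of GAAA repeated after any 2 bases, were in 0 of 15 windows. These were in 7.69%, 3.68%, 15.0%, 6.99% and 3.35% of all windows. Both windows with an ETS match and both with a GATA match were those of Lef1 start 4 and Tcf7l2 start 2, at which the region lay just downstream. These windows also had the lowest G and C shares of the 15, at 43.7% and 42%. The comparison with all windows was not matched for base composition, and some of the 15 windows overlap each other. The searches describe letters in these windows only. The sequences of the 9 listed regions were not analysed here.

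Numbers of regions differed widely between the 8 genes. Tle3 had 41 regions, Tle4 39, Lef1 29, Tcf7 24, Ctnnb1 19, Tcf7l2 17, Tcf7l1 14 and Tle1 only 2. Over the 16388 genes with at least 1 region the median was 3, so that 7 of the 8 genes stood far above it and Tle1 below. For Tle3 and Tle4 the number came largely from outside the gene: 33 of the 41 Tle3 regions and 24 of the 39 Tle4 regions were assigned from flanking DNA, where the next protein-coding gene was 492 and 495 kb from Tle3 and 528 and 1307 kb from Tle4. Tle1 also lies alone, with neighbours 352 and 650 kb away, yet had 0 regions outside its span.

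**Figure D2:**
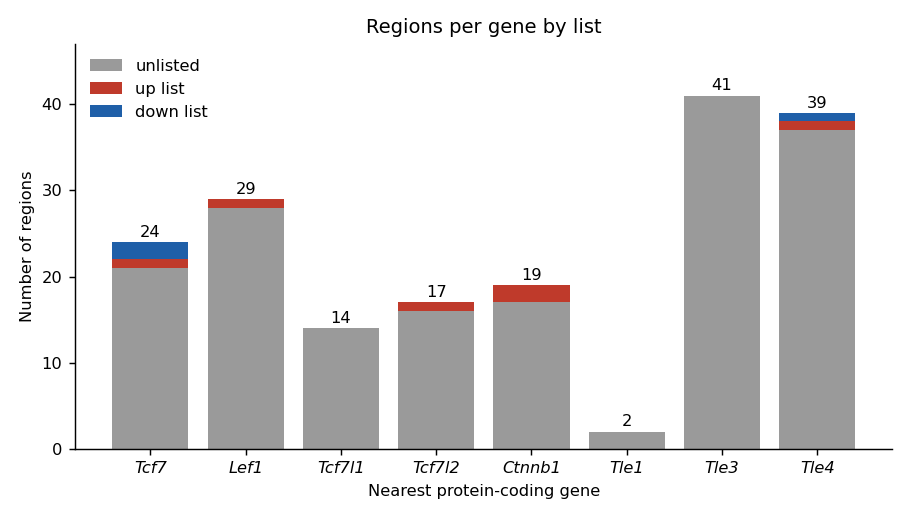
Number of accessible regions whose nearest protein-coding gene is each of the 8 genes, stacked by list, with the total above each bar. Listed regions (3 at Tcf7, 2 each at Ctnnb1 and Tle4, 1 each at Lef1 and Tcf7l2) are a small part of every bar, and Tcf7l1, Tle1 and Tle3 have none.

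Of the 185 regions, 6 were up, or 3.24% (1.49 to 6.89%), against 4.21% of all regions. Down regions numbered 3, or 1.62% (0.553 to 4.66%), against 1.40% of all regions. Both shares were close to those of the series, and the interval of each held the background. The TCF and LEF factors had 3 up and 2 down regions of 84, Ctnnb1 had 2 up and 0 down of 19, and the TLE genes had 1 up and 1 down of 82. Counted by gene, 5 of 8 had an up region (Tcf7, Lef1, Tcf7l2, Ctnnb1 and Tle4) and 2 had a down region (Tcf7 and Tle4). These counts depend on which genes compete for a region: with genes of every biotype, the up regions of Lef1, Ctnnb1 and Tle4 went to lncRNA genes or a pseudogene, and 2 up regions were left, at Tcf7 and Tcf7l2. Down regions numbered 2 by that rule, since the upstream one of Tcf7 was nearer to the lncRNA gene Gm30217. Among all genes with a region 16.1% had an up region and 5.39% a down region, but a gene with more regions has more chances to hold one. Among the 1366 genes with 14 to 41 regions, the range of the 7 genes other than Tle1, 49.4% had an up region, 26.7% a down region, 10.2% both and 34.0% neither. Tcf7 and Tle4 had both.

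The listed regions were spread over long distances, as the map of the loci shows. Within the gene spans lay 86 of the 185 regions (46.5%, against 61.0% of all regions), upstream 66 and downstream 33. The 99 regions outside the spans lay a median of 70.2 kb away, against 19.3 kb for all regions outside genes. More than 100 kb away were 36 regions (19.5%, against 6.12% of all regions), with 2 of them up and 0 down. In the whole series 314 of the 5583 regions this far from a gene were up and 150 were down, so the up share of the 36 was close to the background, and 36 regions are too few to read anything from 0 down. For such regions the nearest gene is a matter of position, and a link to its expression was not tested.

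**Figure D3:**
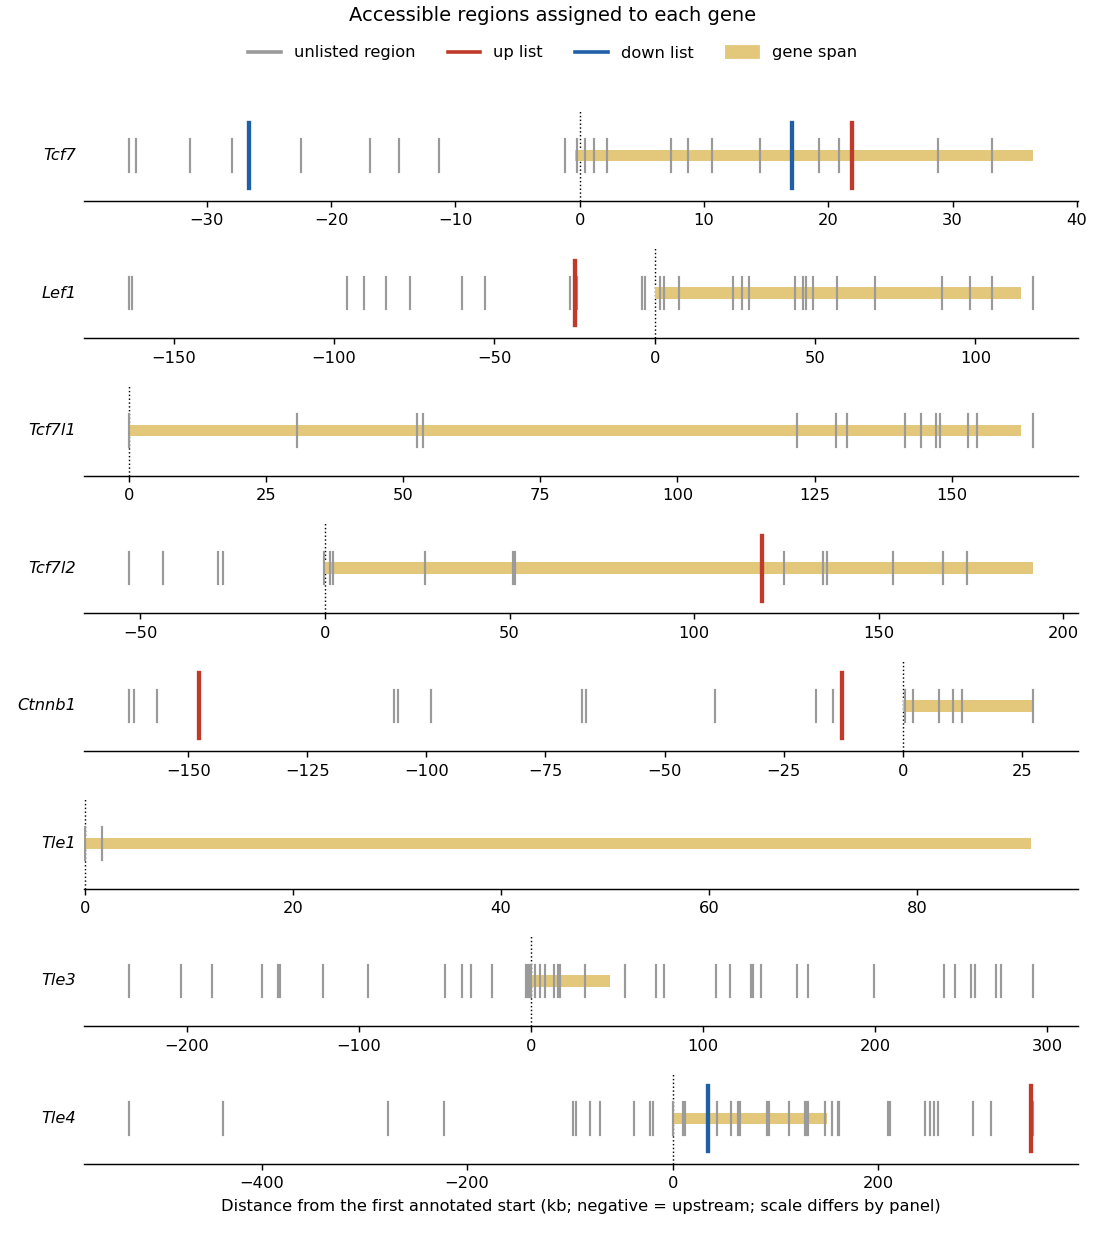
Regions of each gene by distance from its first annotated start in kb, drawn in the direction of transcription, with the gene span as a bar. Grey ticks are unlisted, red ticks up and blue ticks down regions. Horizontal scales differ between panels. At Tcf7 an up and a down tick stand 4.30 kb apart within the gene.

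Tcf7 encodes TCF-1 and lies on chromosome 11 from 52246527 to 52283383 on the minus strand, in mm10 coordinates (the gene table's assembly GRCm38.p6 is the same build). Its span was among the densest in accessible regions. The 36.9 kb span overlapped 14 regions, or 3.80 per 10 kb, and 17.5% of its length was accessible. Of the 7081 genes with spans between 27.1 and 192 kb, the range of the 8 genes, 5 were denser and 7 had a larger share of their length covered. The median of those genes was 0.587 regions per 10 kb and 2.70% of length. Together with a region just upstream, 15 regions followed each other over 34.9 kb with no gap above 6.63 kb. A second group of 9 regions lay from 11.1 to 36.2 kb upstream of the first annotated start, and 0 regions lay downstream.

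Of these 24 Tcf7 regions, 1 was up and 2 were down. The up region was 320 bp wide (chr11:52260941-52261260) and lay inside the gene, 21.8 kb after the start. The first down region was 804 bp wide (chr11:52265558-52266361), also inside the gene, 16.7 kb after the start, and was the widest of the 24. The gap between them was 4.30 kb and held 2 unlisted regions, of 249 and 381 bp. Exons and introns were not annotated, so their place within the gene is given by distance only. Opposite calls this close together were rare: in the series 352 listed regions were followed within 5 kb by another listed region, and in 6 of these pairs (1.70%) the calls were opposite. The other pairs of opposite call were assigned to Mbp, B4galt5 and Cdyl2 (1 each) and Atp10a (2). This comparison was chosen after the positions had been seen. The second down region of Tcf7 was 314 bp wide (chr11:52309436-52309749), 26.4 kb upstream of the start within the upstream group, and had unlisted regions on either side at 3.83 and 1.07 kb.

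Lef1, on chromosome 3 from 131110297 to 131224357 on the plus strand, had 1 up region of 29 and 0 down regions. The up region was 693 bp wide (chr3:131084941-131085633), lay 24.7 kb upstream of start 1 and was nearer to the lncRNA gene Gm36603. Unlisted regions lay 0.890 kb and 0.416 kb to either side of it. The nearest other listed region was 165 kb away, beyond the gene's far end, and was also up. Within the 114 kb span there were 15 regions, 1.32 per 10 kb, covering 8.81% of its length, and all 15 were unlisted. Upstream of the gene, 13 regions reached 164 kb into a stretch of 380 kb without another protein-coding gene.

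The 2 relatives that are better known outside lymphocytes were more sparsely covered. Tcf7l1, usually a repressor, had 14 regions, 13 of them in its 163 kb span (0.799 per 10 kb, 3.17% of length), and 0 were listed. They fell mainly in the 3′ part of the gene, with 4 regions in the first 54 kb and the other 9 from 122 kb after the start to the 3′ end. Tcf7l2 had 17 regions, 13 in its 192 kb span (0.678 per 10 kb, 3.35% of length). Its up region was 543 bp wide (chr19:55860038-55860580) and lay inside the gene, 118 kb after start 1. This region stood alone on its upstream side, 66.7 kb from the preceding region, and 5.16 kb before the next.

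Ctnnb1 encodes β-catenin, which carries the Wnt signal into the nucleus. Its 27.1 kb span held 6 regions (2.21 per 10 kb, 11.8% of length), all unlisted, the widest of 1618 bp over both annotated starts. Its 2 up regions were upstream, each nearer to a lncRNA gene or a pseudogene than to Ctnnb1. The nearer one was 280 bp wide (chr9:120920587-120920866), 12.5 kb before the start, and the farther one was 516 bp wide (chr9:120785437-120785952), 147 kb before the start. Between them lay 8 regions, all unlisted.

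The TLE genes encode corepressors without DNA binding of their own. Tle3 had 0 listed regions of 41, which allows a share of up to 7.32% in each list (3 counts of 41), a limit above both background shares. Tle4 had 1 up and 1 down region of 39. Its down region was 736 bp wide (chr19:14563318-14564053), inside the gene and 34.1 kb after start 1. Its up region was 392 bp wide (chr19:14249111-14249502), 199 kb beyond the 3′ end and nearer to a lncRNA gene, and the 2 were 314 kb apart with 22 unlisted regions between them. Tle1 had 2 regions, of 1102 bp over its start and of 404 bp just inside the gene, and 0 in the remainder of its 91.0 kb span.

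Widths of the regions resembled those of the series. The median of the 185 was 410 bp (quartiles 264 and 651 bp, range 150 to 1931 bp), against 400 bp (252 and 653 bp) for all regions. The 9 regions that covered an annotated start had a median of 1102 bp, against 404.5 bp for the other 176. In the whole series the medians were 970 and 364 bp. The widest was the 1931 bp region of Lef1, and 0.320% of all regions were wider. The next was the 1715 bp region over both starts of Tle4. In Tcf7 and Tle3 the single regions over a start were narrow, at 583 and 242 bp in Tcf7 and 572 bp in Tle3. Those of Tcf7 lay between regions of 764 and 798 bp close by, so their widths alone do not describe how far open chromatin reached. The 6 up regions ranged from 280 to 693 bp (median 454 bp) and the 3 down regions from 314 to 804 bp (median 736 bp), within the ranges of listed regions of the whole series.

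**Figure D4:**
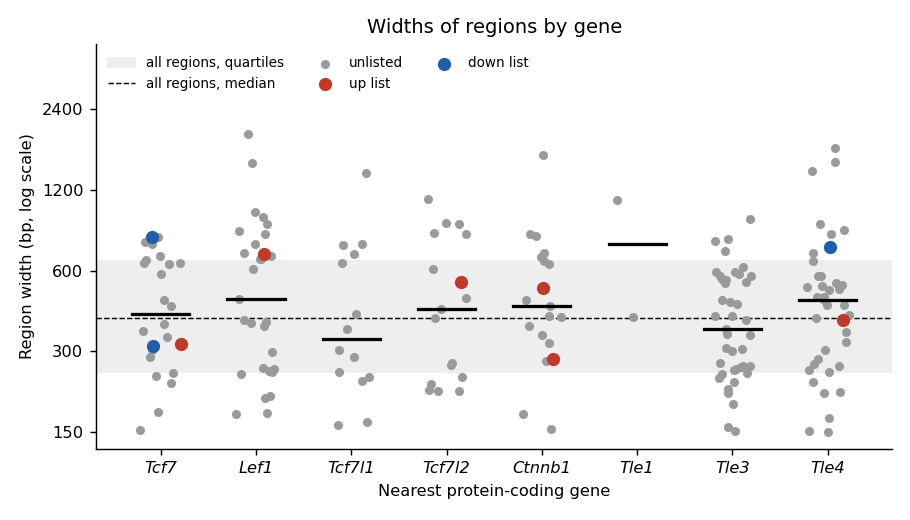
Width in bp, on a log scale, of each region by gene. Points are regions, black bars are the medians of a gene, the dashed line is the median of all 91266 regions (400 bp) and the band runs from 252 to 653 bp, their quartiles. The listed regions (red up, blue down) lie between 280 and 804 bp.

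The remainder of the Wnt pathway was described with lists of genes. Of 43 genes for Wnt ligands, their carriers and receptors, 38 were the nearest gene to a region. Of their 213 regions 3 were up, or 1.41% (0.480 to 4.06%), against 4.21% of all regions. The upper bound fell just short of that share, on 3 regions. Regions of the same gene are not independent, so nothing is read from it. Down regions numbered 2, or 0.939% (0.258 to 3.36%), against 1.40%. The up regions belonged to the receptor genes Fzd7 (1 of 2) and Ryk (1 of 7) and to the ligand gene Wnt7b (1 of 13), and both down regions to the receptor gene Ror1 (2 of 26). The other 39 genes had neither.

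Among 34 genes of the β-catenin destruction complex, of signal transduction and of inhibitors, 5 of 199 regions were up and 5 were down. Each share was 2.51% (1.08 to 5.75%), against 4.21% up and 1.40% down of all regions. The down regions included 3 of 16 at Znrf3 and 1 of 10 at Rnf43, which encode ubiquitin ligases that remove Wnt receptors from the cell surface, and 1 of 4 at Axin1, which encodes the scaffold of the destruction complex. The up regions were 2 of 5 at Csnk1a1, which encodes the kinase that primes β-catenin for degradation, 1 of 7 at Dkk3 and 1 of 2 at Dkk4, which encode secreted Dickkopf proteins, and 1 of 17 at Tnks, which encodes tankyrase. Among 25 other nuclear cofactors, 7 of 216 regions were up (3.24%, 1.58 to 6.54%, against 4.21%). Down were 2 (0.926%, 0.254 to 3.31%, against 1.40%). The intervals of both lists held the background shares. Satb1, which encodes a chromatin organiser, had 1 of each among 47 regions, Ctbp2, which encodes a corepressor, had 2 up of 14, and Nlk, which encodes a kinase acting on TCF and LEF factors, had 1 down of 7. Cdk8, Hipk2, Jup and Tnik had 1 up region each.

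A last list held 30 genes described as depending on TCF-1 or LEF-1 in lymphocytes. Several of them were known from earlier results of these data to hold down regions, so its shares are a description and no test was made. Of its 631 regions 39 were down, or 6.18% (4.55 to 8.34%), against 1.40% of all regions, and 12 were up, or 1.90% (1.09 to 3.29%), against 4.21%. The down regions belonged to 17 of the 30 genes, with at most 4 at any gene and a median of 2. Over all genes with a region 5.39% had a down region, but the genes of this list were rich in regions, with 631 over 28 genes, and no set of genes matched to them on that number was made. Only 27.4% of these regions lay within a gene span, against 61.0% of all regions. Bcl6, which encodes a transcriptional repressor, had 4 of 23 regions down. Slamf6, which encodes a SLAM family receptor, had 3 of 6 down, Gzma, which encodes granzyme A, 3 of 6, and Il7r, which encodes the IL-7 receptor, 2 of 4, each with 0 up regions. S1pr1, which encodes the receptor by which lymphocytes leave tissues, had 3 of 31 down. Id2, which encodes an inhibitor of E proteins, had 3 of 77 down, all between 173 and 319 kb from the gene. Bach2 had 3 of 66 down with 1 up. Icos had 2 of 21 down with 1 up.

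Not all genes of this list had more down than up regions. Gata3 had 4 up and 2 down of 46, and 3 of the 4 up regions lay 283 to 991 kb from the gene. Prdm1, which encodes Blimp-1, had 3 up and 1 down of 44, and Ccnd1, which encodes cyclin D1, had 3 up and 0 down of 9. Inside the gene spans 16 of 173 regions were down (9.25%, against 1.36% of all regions within spans) and 2 were up (1.16%, against 3.42%). Outside the spans 23 of 458 were down (5.02%, against 1.45% of all regions outside spans) and 10 were up (2.18%, against 5.46%). The list was drawn up with down regions at several of its genes already known, so these shares by place are a description too. It mixes genes described as activated with genes described as repressed.

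**Figure D5:**
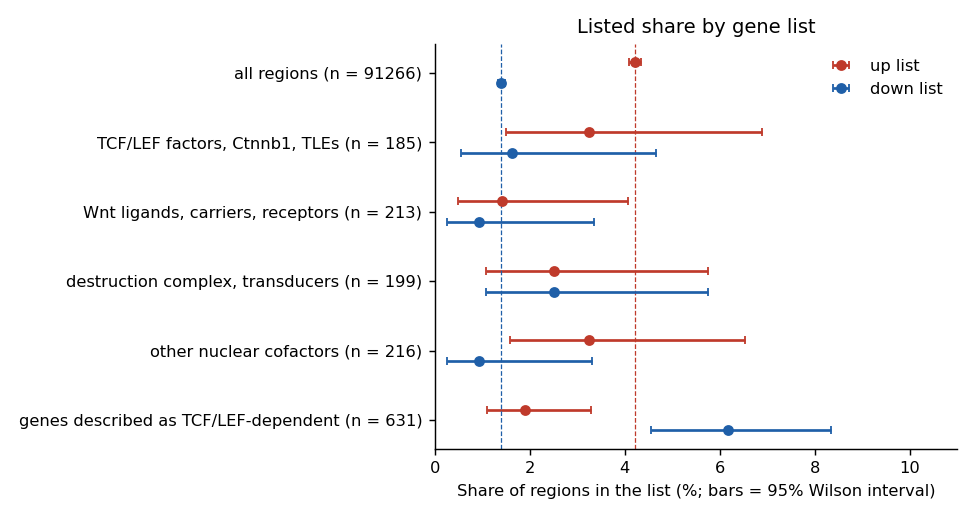
Percentage of regions in the up list (red) and down list (blue) for all regions, for the 8 genes and for 4 lists of related genes, with n regions in brackets and 95% Wilson intervals as bars. Dashed lines mark the shares of all regions, 4.21% up and 1.40% down. The down share of the 8 genes, 1.62%, lies near its line. The list of 30 TCF- or LEF-dependent genes, at 6.18% down, was drawn up with down regions at several of its genes already known, so its place relative to the line is a description only.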

How the data were processed

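ATAC-seq was performed on 4 samples, 2 per IL-15 dose. The 3 deposited tables of the series were used, so "deposited" here means the authors' region list (position and width in bp), up list and down list, none with values per sample. Per the submitters' processing notes, the build was mm10 and BWA, ArchR, MACS2 and HOMER 4.11.1 were used, with no role given. Peak threshold, pooling of samples, differential test and reference dose are not given in the sources used here.

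Starts of the full list were raised by 1, after which 3845 of 3845 up and 1275 of 1275 down regions were identical to a listed region. Regions were assigned to 21883 RefSeq protein-coding genes (GRCm38.p6). Annotated starts came from the RefSeq promoter table. As a check of the build, 52.3% of starts lay in a region, against 3.22% and 3.19% after moving them by 100 kb either way. The planned test between doses could not be made. Assignment was tested on simulated regions placed at or beyond the higher-coordinate end of a gene. Regions well inside a span, before its lower end or tied between genes were not simulated. The genes, lists and comparisons were chosen with earlier results of these data known. Named genes of the lists were at most 12 per list, those with most listed regions, of which 1 is not reported here by name. Python 3.11.15, pandas 2.3.3 and SciPy 1.17.1 were used.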

Additional observations from a re-analysis of the deposited data

How the results depend on the processing

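No paired analysis was possible because no table gives accessibility by sample. The test between doses, other normalizations, leaving out a replicate and stricter thresholds were not run for the same reason. The 185 regions became 86 within the gene spans, 99 within 10 kb of them and 93 when genes of every biotype competed for a region. The 6 up regions became 2 under each of these rules, and 3 when only regions at least as wide as the median of all were kept. The last rule leaves fewer regions by construction. Under the other rules run for these counts there were 148 to 183 regions and 4 to 6 up regions, and the median width was 404 bp in place of 410 bp without regions at a gene start or end. The 3 down regions stayed between 2 and 4 under every rule run. Under genes of every biotype, the Lef1 up region, both Ctnnb1 up regions, the Tle4 up region and the upstream Tcf7 down region went to lncRNA genes or a pseudogene, while the listed regions inside Tcf7, Tcf7l2 and Tle4 stayed. Of the Tle3 regions, 31 of 41 went to other genes. Depth is unknown, and it limits which regions could be listed.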
